A study of Mus musculus with 2 samples.

Results

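Notch and Hedgehog signalling are conserved pathways that carry signals from neighbouring cells to the nucleus. A Notch receptor is cut after binding a ligand on another cell, and its freed intracellular part joins the DNA-binding protein RBPJ and a coactivator of the Mastermind family to switch on target genes. Hedgehog ligands bind the receptor Patched 1, which then stops holding back Smoothened, and Smoothened in turn releases the GLI transcription factors from the inhibitor SUFU. Both pathways are known in T cells, Notch for lineage choices in the thymus and for helper cell differentiation, and Hedgehog for thymocyte development and T cell activation. The 9 genes described here are Notch1, Notch2, Notch3, Rbpj and Maml1 of the Notch pathway and Ptch1, Smo, Sufu and Gli1 of the Hedgehog pathway, matched by symbol among 15574 genes with a read. All 9 were found. They were chosen after the ratios of Notch3 and Ptch1 between the libraries had been seen, so all ratios below are descriptions, with no test.

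The study asked which genes depend on CREB, a transcription factor activated by cyclic AMP, in T helper 17 (Th17) cells, the CD4 T cells that make IL-17. Naive T cells of C57BL/6 background, labelled CREB KO or wildtype, were kept for 6 days in IL6, TGFb, IL1b and IL23 and then restimulated with plate-bound CD3 antibody for 4 h. Each genotype has 1 library of poly(A)-enriched RNA, with 23938112 counted reads in the library labelled CREB KO and 26525471 in the wildtype library. How CREB was deleted, in which cells, and how many animals gave cells were details not given in the sources used here. With 1 library per group there is no replicate error and no p-value, and every difference lies between these libraries. Intervals in brackets are 95% intervals for counting error only, and reads amplified by PCR are not independent molecules.

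Creb1, the targeted gene, went against the label, with 25 reads in the library labelled CREB KO and 13 in the wildtype library. Its ratio was 2.08 (1.04 to 4.51), at a mean of 0.766 reads per 1000000 scaled reads, under the 1 required of measured genes. How CREB was deleted was not given, so these few reads cannot check the label. Each direction below therefore refers to the library as labelled. Both libraries held T cell and Th17 transcripts: Cd4 had 19552 reads in the library labelled CREB KO and 23125 in the wildtype library, and Il17a, a defining cytokine gene of Th17 cells, had 6981 reads in the library labelled CREB KO and 13093 in the wildtype library. Trac, the constant gene of the T cell receptor alpha chain, was unlisted in both. Most markers of other cells had few reads, but since genes such as Trac were unlisted in T cells, an unlisted marker is not shown to be absent. Of 4 fibroblast markers 3 had reads, summing to 0.833 reads per 1000000 scaled reads (CPM) in the library labelled CREB KO and 0.756 CPM in the wildtype library, with Pdgfra at no listed reads in both. The 4 endothelial markers summed to 2.54 CPM in the library labelled CREB KO and 2.84 CPM in the wildtype library. The 5 macrophage and monocyte markers, Lyz2 and Adgre1 unlisted, summed to 1.08 CPM in the library labelled CREB KO and 0.794 CPM in the wildtype library. The 5 B cell markers, Ms4a1 and Pax5 unlisted, summed to 2.21 CPM in the library labelled CREB KO and 2.04 CPM in the wildtype library. The 4 dendritic cell markers summed to 2.33 CPM in the library labelled CREB KO and 2.61 CPM in the wildtype library, with Siglech unlisted. Of the 4 natural killer cell markers only Eomes had reads, at 0.417 CPM in the library labelled CREB KO and 0.567 CPM in the wildtype library. Cd8b1, a marker of CD8 T cells, had 234 reads in the library labelled CREB KO and 237 in the wildtype library, or 9.75 CPM in the library labelled CREB KO and 8.96 CPM in the wildtype library, while Cd8a was unlisted in both. The part of such cells in the ratios below was not tested. In bulk RNA, fewer cells with a transcript and less of it per cell cannot be told apart.

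Among the Notch receptors Notch1 and Notch2 had many reads and Notch3 few. Notch1 (GRCm38 chromosome 2, 26457903 to 26516663) had 8295 reads in the library labelled CREB KO and 8615 in the wildtype library. Scaled to library size this is 346 CPM in the library labelled CREB KO and 326 CPM in the wildtype library, a ratio of 1.06 (1.03 to 1.09). Notch1, the receptor that commits early thymocytes to the T lineage, was therefore at nearly the same level in both libraries. Notch2 (chromosome 3, 98013527 to 98150361), a receptor also used by T helper cells, had 6569 reads in the library labelled CREB KO and 5640 in the wildtype library. Its levels of 274 CPM in the library labelled CREB KO and 213 CPM in the wildtype library gave a ratio of 1.28 (1.24 to 1.33), further from 1 than that of Notch1, with intervals that do not overlap. Notch3 (chromosome 17, 32120820 to 32166852), a receptor best known in vascular mural cells and in immature T cells, had 256 reads in the library labelled CREB KO and 161 in the wildtype library. At 10.7 CPM in the library labelled CREB KO and 6.09 CPM in the wildtype library, its ratio was 1.75 (1.43 to 2.15), the highest of the Notch members. Of the merged exon length, 9.76% for Notch1 and 6.03% for Notch3 lies opposite other genes and 5.02% for Notch2 lies in another gene on the same strand. None of these overlapping genes was listed with reads. The annotation used for counting was not given, so they may not have been counted and are not shown to lack reads.

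Within each library the make-up of the Notch receptor reads can be read without any scaling of library size. Of the reads of Notch1, Notch2 and Notch3 together, Notch3 took 1.69% (Wilson 95% interval 1.499 to 1.911) of 15120 in the library labelled CREB KO and 1.12% (0.958 to 1.30) of 14416 in the wildtype library. Notch2 took 43.4% (42.7 to 44.2) in the library labelled CREB KO and 39.1% (38.3 to 39.9) in the wildtype library. Notch1 took 54.9% (54.1 to 55.7) in the library labelled CREB KO and 59.8% (59.0 to 60.6) in the wildtype library. The shares of Notch2 and Notch3 were thus higher and that of Notch1 lower in the library labelled CREB KO, with Notch3 a small part of the mix in both. These shares restate the ratios by which the genes were chosen. Notch4, the remaining mouse receptor, had 22 reads in each library.

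The nuclear partners of the receptors had ratios below those of Notch2 and Notch3, but the intervals of both partners overlap that of Notch2. Maml1 (chromosome 11, 50255634 to 50292311), the Mastermind coactivator that binds the complex of Notch and RBPJ, had 1596 reads in the library labelled CREB KO and 1453 in the wildtype library. Its levels were 66.5 CPM in the library labelled CREB KO and 54.9 CPM in the wildtype library, with a ratio of 1.21 (1.13 to 1.30). Rbpj (chromosome 5, 53466152 to 53657362), the DNA-binding partner of all Notch receptors, had 115 reads in the library labelled CREB KO and 119 in the wildtype library. At 4.79 CPM in the library labelled CREB KO and 4.498 CPM in the wildtype library, its ratio of 1.06 has an interval that includes 1 (0.817 to 1.39), so no direction was detectable at this depth. Rbpj has 5 curated RefSeq transcripts and the pseudogenes Rbpj-ps1, Rbpj-ps2 and Rbpj-ps3. None of these pseudogenes was listed with reads, but they may not have been in the annotation used for counting. If reads shared among the transcripts or with the pseudogenes were dropped in counting, the level of Rbpj is understated.

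**Figure D1:**
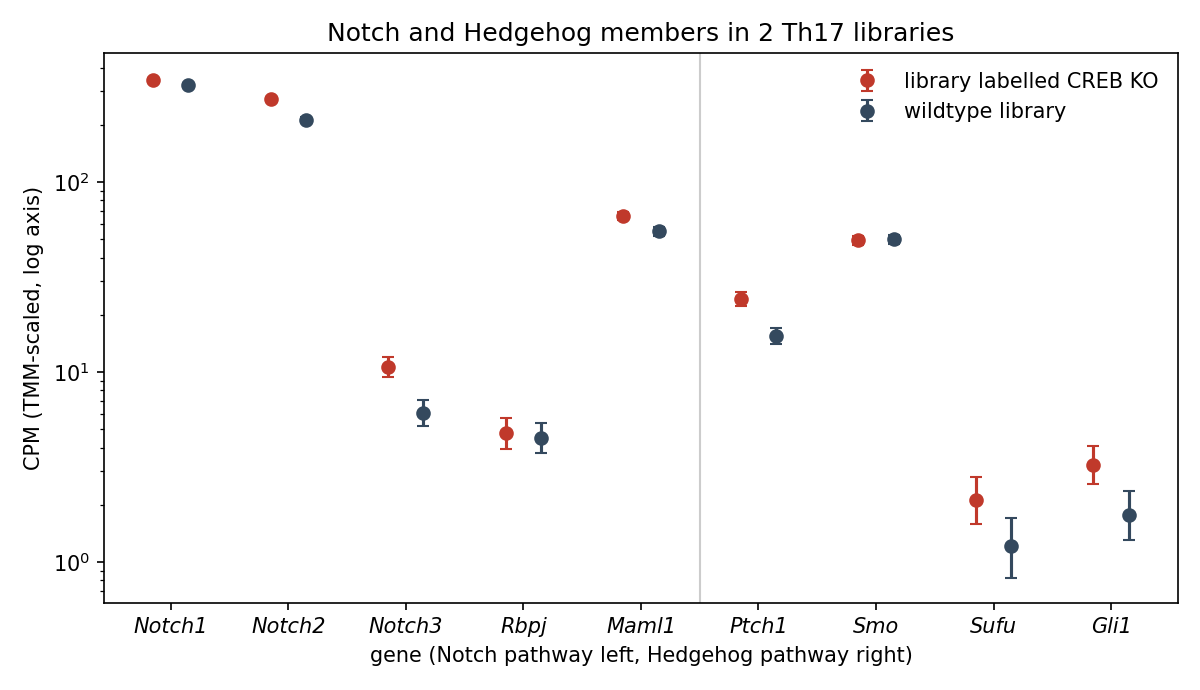
Level of each gene (CPM, log axis) in the library labelled CREB KO (left point of each pair) and the wildtype library (right point), with exact Poisson 95% intervals for counting error. Notch3, Ptch1, Sufu and Gli1 lie higher in the library labelled CREB KO, and Notch1, Rbpj and Smo lie close together.

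The Hedgehog members parted into Smo, at nearly the same level in both libraries, and 3 genes that were higher in the library labelled CREB KO. Ptch1 (chromosome 13, 63508328 to 63573598), both the receptor and a classic target gene of the pathway, had 583 reads in the library labelled CREB KO and 410 in the wildtype library. This is 24.3 CPM in the library labelled CREB KO and 15.5 CPM in the wildtype library, a ratio of 1.57 (1.38 to 1.78). Gli1 (chromosome 10, 127329882 to 127341974), a transcription factor whose own gene is a pathway target and a common readout of its activity, had 78 reads in the library labelled CREB KO and 47 in the wildtype library. Its ratio of 1.82 (1.26 to 2.69) was the highest of the 9 but rests on few reads, at 3.25 CPM in the library labelled CREB KO and 1.78 CPM in the wildtype library. Sufu (chromosome 19, 46396896 to 46488804), the inhibitor that holds GLI proteins back, had 51 reads in the library labelled CREB KO and 32 in the wildtype library. Its levels of 2.12 CPM in the library labelled CREB KO and 1.21 CPM in the wildtype library gave a ratio of 1.74 with a wide interval (1.11 to 2.82), so the target genes and the inhibitor lay on the same side. Smo (chromosome 6, 29735503 to 29761365), the membrane protein that passes the signal on, had 1182 reads in the library labelled CREB KO and 1319 in the wildtype library. At 49.2 CPM in the library labelled CREB KO and 49.9 CPM in the wildtype library its ratio was 0.988 (0.912 to 1.07), the only ratio of the 9 below 1.

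Shares of reads within a library need no scaling either, but those below restate the ratios of the same genes. The Ptch1 ratio was among those seen before the genes were chosen. Ptch1 held 33.0% (30.9 to 35.3) of the 1765 reads of Ptch1 and Smo in the library labelled CREB KO and 23.7% (21.8 to 25.8) of 1729 in the wildtype library. Gli1 held 6.19% (4.99 to 7.66) of the reads of Gli1 and Smo in the library labelled CREB KO and 3.44% (2.60 to 4.55) in the wildtype library. The balance between the target genes themselves was close, with Gli1 at 11.8% (9.56 to 14.5) of the reads of Gli1 and Ptch1 in the library labelled CREB KO and 10.3% (7.82 to 13.4) in the wildtype library. A small part of the Gli1 exons, 6.55% of their length, overlaps genes on the opposite strand, among them Arhgap9, a gene of blood cells. Arhgap9 had 159 reads in the library labelled CREB KO and 161 in the wildtype library, a ratio of 1.09 (0.869 to 1.36), and its part in the Gli1 count was not tested.

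Read by role, the ratios of receptors and pathway factors overlapped. The 5 receptors and signal transducers (Notch1, Notch2, Notch3, Ptch1 and Smo) ran between 0.988 and 1.75, and the 4 intracellular factors (Rbpj, Maml1, Sufu and Gli1) between 1.06 and 1.82. Ordered by ratio, Gli1, Notch3, Sufu and Ptch1 came first and each overlapped its neighbour in counting interval. Between Ptch1 and Notch2 the intervals parted, and below that point each neighbour again overlapped the next, in the order Notch2, Maml1, Rbpj, Notch1 and Smo. Counting a gene as higher or lower where its ratio was 1.5-fold or more and its interval excluded 1, 4 members were higher, none was lower and 5 were neither. At a 2-fold limit 0 members were higher. At the 1.5-fold limit, only Ptch1 was higher among the 5 members averaging 10 CPM or more. Over all 10462 genes averaging at least 1 CPM, 2.48% were higher and 1.5% lower by the same rule. At 1 to 10 CPM, where Notch3, Gli1, Sufu and Rbpj lie, 7.27% of genes were higher and 4.31% lower. At 10 to 100 CPM, where Ptch1, Smo and Maml1 lie, 0.416% were higher and 0.277% lower, and at 100 CPM or more, where Notch1 and Notch2 lie, 0.0925% were higher and 0.139% lower. A ratio above 1 was found for 8 of the 9 members and for 48.1% of all measured genes, an interval wholly above 1 for 7 members and 16.2% of genes, and one wholly below 1 for 0 members and 19.5% of genes. Since the members were picked on this contrast, nothing is read from these counts. At a mean of 1 to 10 CPM the SD of log2 ratios over all genes was 0.43, at 10 to 100 CPM 0.17 and at 100 CPM or more 0.12, while the log2 ratios of the 4 higher members were 0.86 for Gli1, 0.81 for Notch3, 0.80 for Sufu and 0.65 for Ptch1. The log2 ratio of Notch2, in the band of 100 CPM or more, was 0.36. The median log2 ratio was 0.36 over the 9 members and -0.01 over all 10462 genes. As the members were picked after ratios of this contrast were seen, nothing is read from these spreads and medians either.

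**Figure D2:**
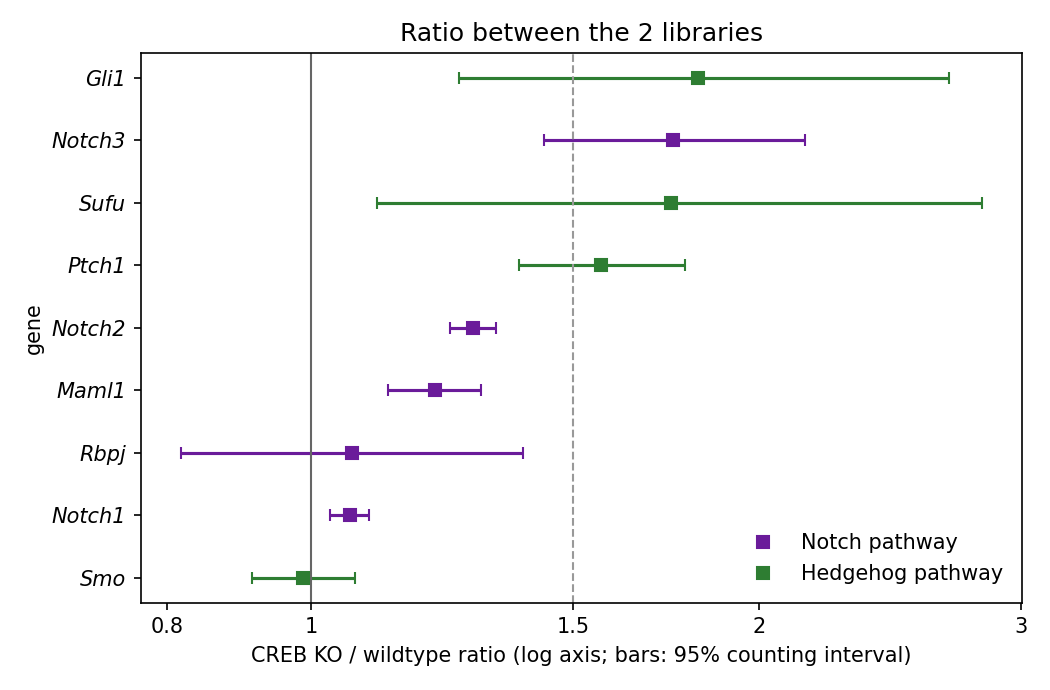
Ratio of the library labelled CREB KO to the wildtype library for each gene (log axis), with 95% counting intervals; the solid line marks 1 and the dashed line 1.5. Gli1, Notch3, Sufu and Ptch1 lie beyond 1.5 and Smo and Rbpj have intervals that include 1.

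**Figure D3:**
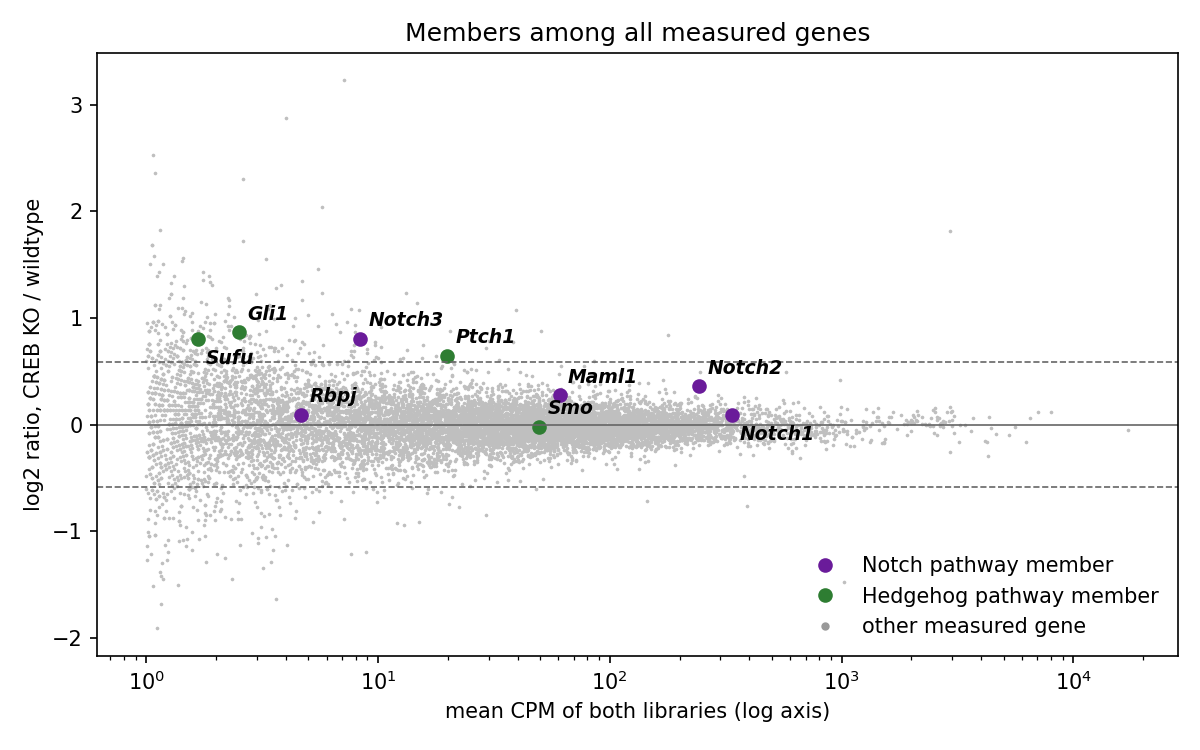
Log2 ratio of the library labelled CREB KO to the wildtype library against mean CPM (log axis) for the 10462 measured genes, with the 9 members named; dashed lines mark 1.5-fold. Gli1, Sufu and Notch3 lie where the spread of all genes is wide, and Ptch1 and Notch2 where it is narrow.

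Levels of different genes can be compared only per length, here as reads per kilobase of merged exons per 1000000 scaled reads (RPKM). Notch1 and Notch2 were the highest members, at 24.3 and 25.4 RPKM in the library labelled CREB KO, and at 22.9 and 19.8 RPKM in the wildtype library. Their order thus turned between the libraries, with overlapping counting intervals in the library labelled CREB KO, and per length of the longest transcript Notch1 was the higher in both. Maml1 followed at 12.0 RPKM in the library labelled CREB KO and 9.94 in the wildtype library, ahead of Smo at 8.76 RPKM in the library labelled CREB KO and 8.87 in the wildtype library, an order that also turns with the longest transcript. A gap separated these from the rest. Ptch1 stood at 1.71 RPKM in the library labelled CREB KO and 1.09 in the wildtype library, and Notch3 at 1.32 RPKM in the library labelled CREB KO and 0.752 in the wildtype library. Gli1 stood at 0.651 RPKM in the library labelled CREB KO and 0.356 in the wildtype library, next to Rbpj at 0.376 RPKM in the library labelled CREB KO and 0.353 in the wildtype library, with overlapping intervals in the wildtype library and the reverse order per length of the longest transcript. Sufu was the lowest, at 0.276 RPKM in the library labelled CREB KO, where its interval overlaps that of Rbpj, and 0.157 in the wildtype library. Smoothened RNA thus exceeded that of its inhibitor Ptch1 5.12-fold in the library labelled CREB KO and 8.12-fold in the wildtype library, and Notch1 exceeded Notch3 18.4-fold in the library labelled CREB KO and 30.4-fold in the wildtype library. The members with a ratio of 1.5 or more were all in the low set.

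The low set includes the 3 members with several curated RefSeq transcripts, which are Rbpj with 5 and Ptch1 and Sufu with 2 each. Over all protein-coding genes with a read, the median level was 3.53 RPKM for genes with 1 curated transcript, 1.58 for genes with 2 and 0.747 for genes with 5 or more. Merged exons were also longer, with a median of 3.68 kb for genes with 1 curated transcript and 5.49 kb for genes with 5 or more, and the handling of reads shared by transcripts was not given in the sources used here. What either adds to these low levels was not tested. Notch3 and Gli1, with 1 curated transcript each, were low as well.

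**Figure D4:**
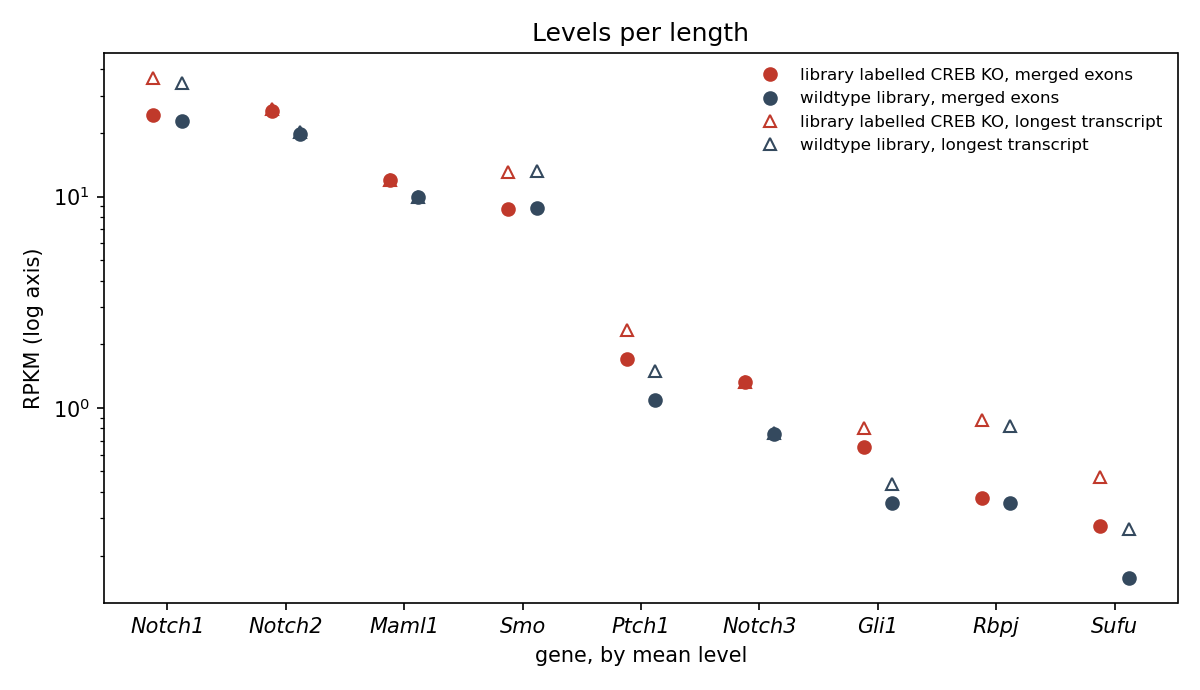
Level per length (RPKM, log axis) of each gene in the library labelled CREB KO (left) and the wildtype library (right), by merged exon length (filled circles) and by longest transcript (open triangles). Notch1, Notch2, Maml1 and Smo form a high set and the other 5 genes a low set under either length.

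The promoters of the genes with the higher ratios are shown because CREB binds the cyclic AMP response element, the letters TGACGTCA, or its shorter core TGACG. The windows are the 250 bases before the RefSeq transcription start on GRCm38.p6, printed on the strand of the gene, with every match to the searched motifs in capitals. RefSeq windows were matched for 8 of the 9 members, with Gli1 not among them and a pair of windows for Rbpj. Notch3 (chr17:32166891-32167140, minus strand), Ptch1 (chr13:63565736-63565985, minus strand), Sufu (chr19:46396646-46396895, plus strand) and, for comparison among members of smaller ratio, Maml1 (chr11:50292337-50292586, minus strand) read as follows.
Notch3: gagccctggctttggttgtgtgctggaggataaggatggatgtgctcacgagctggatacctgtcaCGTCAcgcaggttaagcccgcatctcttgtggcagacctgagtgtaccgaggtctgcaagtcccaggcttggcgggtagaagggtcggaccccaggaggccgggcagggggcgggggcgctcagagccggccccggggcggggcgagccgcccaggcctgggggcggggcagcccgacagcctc
Ptch1: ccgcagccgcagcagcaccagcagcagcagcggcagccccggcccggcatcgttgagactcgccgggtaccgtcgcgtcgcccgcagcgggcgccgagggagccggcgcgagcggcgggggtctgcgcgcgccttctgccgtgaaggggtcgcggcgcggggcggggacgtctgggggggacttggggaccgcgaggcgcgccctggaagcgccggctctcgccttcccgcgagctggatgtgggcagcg
Sufu: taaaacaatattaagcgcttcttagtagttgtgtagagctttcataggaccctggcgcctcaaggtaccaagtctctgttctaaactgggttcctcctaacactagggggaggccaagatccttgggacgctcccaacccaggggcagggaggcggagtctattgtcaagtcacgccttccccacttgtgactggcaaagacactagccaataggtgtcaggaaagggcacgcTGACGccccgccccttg
Maml1: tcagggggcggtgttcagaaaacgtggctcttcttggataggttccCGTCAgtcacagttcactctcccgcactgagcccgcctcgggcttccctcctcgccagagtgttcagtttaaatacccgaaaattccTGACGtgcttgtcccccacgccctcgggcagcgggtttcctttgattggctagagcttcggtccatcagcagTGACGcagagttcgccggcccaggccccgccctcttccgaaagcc
The core TGACG, on either strand, begins 184 bases before the start in Notch3, reading CGTCA on the printed strand, and 17 bases before the start in Sufu. Maml1 has 3 matches, at 204, 117 and 45 bases before the start, and the Ptch1 window has none. The windows of Ptch1, Notch1 and Rbpj lie inside the gene spans given above, and starts further upstream were not searched. In all 3 of the 8 matched members hold the core in the window of 300 bases that also takes in the first 50 bases after the start, against 20.8% of 32851 RefSeq promoter windows of the same length. The windows of Notch1, Notch2, Rbpj and Smo lack the core, so Maml1 is the only member of smaller ratio with it. The full element TGACGTCA, which contains the core on both strands, was in no member window and in 1.79% of all windows. The RBPJ motif TGGGAA was found only in the windows of Rbpj itself, at 149 and 65 bases before the start of its first window, and occurs in 25.6% of all windows. Its longer form GTGGGAA, which contains it, was in no member window, against 6.38% of all. The GLI core CCACCC was found only in the Smo window, 162 bases before the start, against 31.5% of all windows, and the longer GLI motif GACCACCCA, which contains that core, was in none, against 0.253%. Matches are letters in a window and say nothing of binding.

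Outside the 9 members, the other genes of the Notch pathway went both ways. Of 52 listed genes, 34 averaged at least 1 CPM, of which Mib2 was higher in the library labelled CREB KO, Aph1b, Fbxw7 and Kat2a were lower and 30 were neither. Over all measured genes 2.48% were higher and 1.5% lower. The median log2 ratio of the 34 genes was 0.01. Among the ligands, Jag2 was the only one measured, with 561 reads in the library labelled CREB KO and 466 in the wildtype library and a ratio of 1.33 (1.171 to 1.504). Jag1 had 9 reads in the library labelled CREB KO and 6 in the wildtype library, and Dll4, named after its values were seen, had 6 reads in the library labelled CREB KO and none listed in the wildtype library, where a count of 0 allows up to 3 reads.

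None of the 5 listed genes for glycosyltransferases that act on Notch was 1.5-fold apart. Over all measured genes only 2.48% were higher and 1.5% lower, so nothing is read from this or from the next count. Lfng, which encodes Lunatic Fringe, had 3679 reads in the library labelled CREB KO and 4041 in the wildtype library, a ratio of 1.003 (0.959 to 1.05). Poglut1, which adds glucose to the receptors, had a ratio of 0.871 (0.798 to 0.949), with Mfng at 1.01 (0.938 to 1.09) and Rfng at 0.974 (0.901 to 1.05). Of the cleavage machinery, 7 of 8 measured genes were neither higher nor lower. The gamma-secretase subunit genes Psenen and Ncstn had ratios of 1.01 (0.966 to 1.05) and 1.06 (1.01 to 1.10), and the sheddase gene Adam10 one of 1.06 (1.01 to 1.12). Aph1b, another subunit gene, had 40 reads in the library labelled CREB KO and 67 in the wildtype library and a ratio of 0.661 (0.433 to 0.988). With a prior count of 5 it is no longer 1.5-fold lower. The counts are of uniquely assigned reads, so reads shared with its close copy Aph1c, if any, could have been dropped, which was not tested.

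The other genes counted as higher or lower were Mib2, Fbxw7 and Kat2a. Mib2, a ubiquitin ligase that acts on ligands, had 35 reads in the library labelled CREB KO and 21 in the wildtype library, a ratio of 1.82 (1.04 to 3.32). Fbxw7, the ubiquitin ligase subunit that marks the Notch intracellular part for degradation, had 16 reads in the library labelled CREB KO and 37 in the wildtype library, a ratio of 0.484 (0.248 to 0.878). The Deltex family genes Dtx3 and Dtx3l had ratios of 1.07 (1.01 to 1.14) and 0.967 (0.914 to 1.02), Mib1 one of 1.21 (1.03 to 1.41) and Numbl one of 0.920 (0.765 to 1.11). Numb itself, an inhibitor of Notch with 6 curated transcripts, was unlisted in both libraries. Among nuclear cofactors, the acetyltransferase gene Kat2a had 43 reads in the library labelled CREB KO and 84 in the wildtype library, a ratio of 0.567 (0.381 to 0.824), whereas Ep300, the acetyltransferase recruited by Mastermind, was at 1.08 (1.04 to 1.12). Hdac1, Snw1 and Spen had ratios of 0.982 (0.957 to 1.01), 0.919 (0.879 to 0.960) and 1.05 (1.01 to 1.10).

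Both measured target genes of Notch outside the members had ratios below 1, with intervals that include 1. Nrarp, a feedback inhibitor, had 186 reads in the library labelled CREB KO and 242 in the wildtype library, a ratio of 0.847 (0.696 to 1.03). Dtx1, another T cell target, had 36 reads in the library labelled CREB KO and 58 in the wildtype library, a ratio of 0.687 (0.438 to 1.05). The remaining targets were below 1 CPM: Hes1 had 9 reads in each library, Hes5 was unlisted, and Hey1, named after its values were seen, had 12 reads in the library labelled CREB KO and 30 in the wildtype library (ratio 0.450, 0.206 to 0.887). Heyl, of the same list, had 4 reads in the library labelled CREB KO and none listed in the wildtype library.

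Of 41 other listed Hedgehog pathway genes, 26 averaged at least 1 CPM, of which none was higher, 1 was lower and 25 were neither, beside the same shares of 2.48% higher and 1.5% lower over all measured genes. Their median log2 ratio was -0.0020. Ligand transcripts were near the limit of detection: Shh was unlisted, Ihh had 8 reads in the library labelled CREB KO and 10 in the wildtype library, and Dhh had 6 reads in the library labelled CREB KO and 8 in the wildtype library. Hhat, which attaches palmitate to the ligands, had 46 reads in the library labelled CREB KO and 55 in the wildtype library and a ratio of 0.923 (0.609 to 1.39). The coreceptor gene Cdon was well measured, with 1508 reads in the library labelled CREB KO and 1639 in the wildtype library, and its ratio was 1.01 (0.945 to 1.09).

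The gene that was lower is Kif7, a kinesin that acts between Smoothened and the GLI factors. Kif7 had been seen in these data before the list was written, so nothing is read from the count of lower Hedgehog genes. Kif7 had 130 reads in the library labelled CREB KO and 328 in the wildtype library, or 5.42 CPM in the library labelled CREB KO and 12.4 CPM in the wildtype library, which is 2.28-fold lower (1.86 to 2.83). Its ratio lay below 1 and that of Sufu, which also acts on GLI proteins, above 1. The kinase gene Adrbk1, now called Grk2, which phosphorylates Smoothened, had a ratio of 0.982 (0.961 to 1.004), and Csnk1a1, a GLI kinase, one of 0.940 (0.904 to 0.977). Spop and Cul3, which form a ligase that degrades GLI proteins, had ratios of 0.984 (0.933 to 1.04) and 0.914 (0.876 to 0.954). Protein kinase A both activates CREB and restrains GLI proteins, and its catalytic subunit genes are named here after their values were seen. Prkaca had 237 reads in the library labelled CREB KO and 224 in the wildtype library, a ratio of 1.17 (0.967 to 1.41). Prkacb had 101 reads in the library labelled CREB KO and 78 in the wildtype library, a ratio of 1.42 (1.05 to 1.94).

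None of the few other measured GLI and target genes was counted as higher. Over all measured genes only 2.48% were higher, so nothing is read from this. Gli3, the main GLI repressor, had 93 reads in the library labelled CREB KO and 101 in the wildtype library, a ratio of 1.01 (0.757 to 1.36), and Gli2 was unlisted. Of the other targets, Foxf2 had a ratio of 1.03 (0.874 to 1.21) and Bmi1 one of 0.941 (0.869 to 1.02). Foxf1, on 33 reads in the library labelled CREB KO and 23 in the wildtype library, had a ratio of 1.57 (0.901 to 2.82) that includes 1. Hhip was unlisted in both libraries. Genes for the primary cilium, where mammalian Hedgehog signalling takes place in many cells but which T cells lack, were measured for 8 of 10 listed. None was 1.5-fold apart, from which nothing is read beside 2.48% higher and 1.5% lower over all measured genes. Kif3b was at 1.04 (0.986 to 1.09), Kif3a at 1.08 (0.977 to 1.19), Tulp3 at 0.987 (0.909 to 1.07) and Ift27 at 1.13 (1.03 to 1.23).

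**Figure D5:**
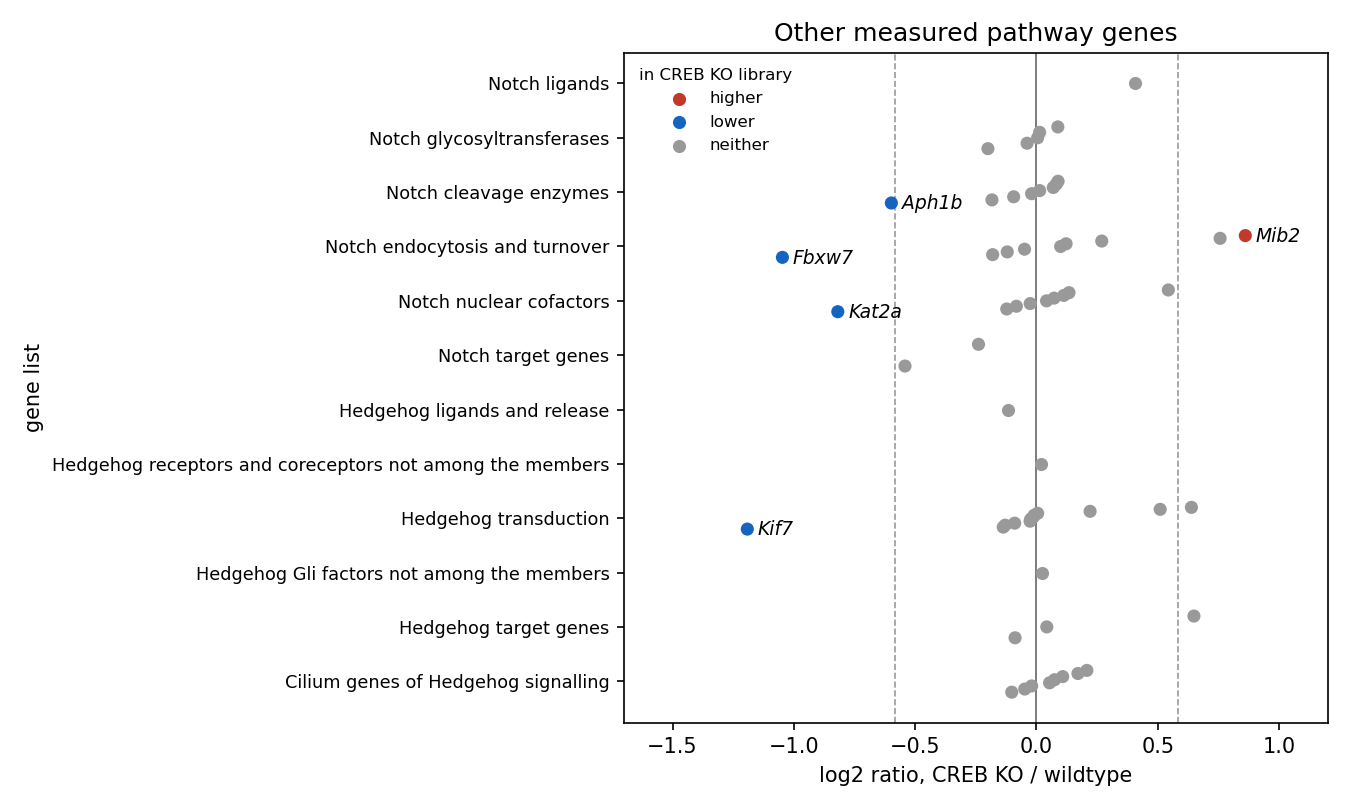
Log2 ratio of the library labelled CREB KO to the wildtype library for each measured gene outside the 9 members, by list; dashed lines mark 1.5-fold. Mib2 is marked as higher, Aph1b, Fbxw7, Kat2a and Kif7 as lower, and the other genes as neither.

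Genes most like Notch3 in both libraries, by distance between log2 CPM values over the 2 libraries, were 2010005H15Rik (0.124), Ntrk3 (0.134) and Rgag4 (0.137). Those most like Ptch1 were Il2 (0.0709), Vasn (0.115) and Tmem120b (0.128). With 2 libraries this likeness means only a like level and a like ratio, for example 558 reads of Il2 in the library labelled CREB KO and 401 in the wildtype library.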

How the data were processed

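The authors deposited 1 whole-number read count per gene symbol and library (uniquely assigned reads, per the file headers). Per the submitters' processing notes, the tools include bcl2fastq and HTSeq and the build is mm10 (GRCm38); aligner, annotation and strand setting were not given in the sources used here. Since the lowest listed count was 1, an unlisted gene was taken as 0.

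Counts were scaled by trimmed mean of M-values factors (edgeR 4.0.16, R 4.3.3). Ratios used a prior count of 0.5, with exact conditional binomial (Clopper-Pearson) 95% intervals. With 1 library per group edgeR gives no quasi-likelihood test. Genes entered at a mean of 1 CPM. Lengths and positions came from GENCODE M21 (94.6% of symbols matched), promoters from RefSeq. Python 3.11.15, numpy 2.4.6, scipy 1.17.1, pandas 2.3.3 and matplotlib 3.10.9 were used. The calling code was run on simulated counts with counting error only, where only genes of 10 CPM or more were changed. That run says nothing of changes at lower levels or of variation between cultures.

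The members, lists and motifs were chosen with earlier results of these data known. Named are the members, Creb1, each called pathway gene, up to 4 others per list with the highest RPKM, and the 3 genes nearest Notch3 and Ptch1; results for some genes this rule takes are not reported here. Alternatives were total-count, DESeq2 1.42.0 and upper-quartile scaling, a prior count of 5, other filters, fold limits of 1.25 and 2, longest transcripts and promoters without the bases after the start.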

Additional observations from a re-analysis of the deposited data

How the results depend on the processing

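Members' ratios stayed on their side of 1 under every scaling and prior count tried, moving by at most 5.41% (Sufu, prior count of 5), and the scalings differed from the main one by less than 1%. The counts changed mainly with the filter, the fold limit and the genes counted; with a prior count of 5, 2 rather than 3 other Notch genes were lower. With a mean of 10 CPM or more, 5 members remain measured, of which 4 had a ratio above 1 and 1 (Ptch1) was higher, while 0 other Notch genes were higher, 0 lower and 0 Hedgehog genes lower, because Mib2, Aph1b, Fbxw7, Kat2a and Kif7 are below that level. With no filter, 2 other Notch genes were higher and 4 lower. At a 2-fold limit 0 members and 0 other Notch genes were higher, and 1 other Notch gene and 1 other Hedgehog gene were lower. At the looser fold limit 5 members, 3 other Notch genes and 1 other Hedgehog gene were higher. At that limit 0 members, 3 other Notch genes and 1 other Hedgehog gene were lower. Over genes with 1 curated transcript, an alternative added after the data were seen, 2 of 6 members (Notch3 and Gli1) were higher, 0 other Notch genes were higher and 1 lower, and 0 other Hedgehog genes were lower, since fewer genes are counted. No share over all genes was taken at these fold limits, without the filter or over genes with 1 curated transcript. None was taken over all genes of 10 CPM or more together either. By the 1.5-fold rule, 0.416% of genes at 10 to 100 CPM were higher and 0.277% lower. At 100 CPM or more, 0.0925% of genes were higher and 0.139% lower. Nothing is read from any of the counts in this section. The mean level of Rbpj was 0.847 RPKM per longest transcript and 0.364 RPKM per merged exon length. No paired analysis was possible because each group has 1 library. The depth limits Sufu, Gli1 and Rbpj most.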
